A study of Arabidopsis thaliana with 8 samples.

Results

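The genes described here encode proteins of the cytosolic 40S ribosomal subunit in Arabidopsis thaliana, from RPSa to RPS18. They were chosen by locus, as every peak in the deposited lists whose gene was 1 of 42 members. The choice used no measured value, though it was made with earlier results of these data known. The rule found 84 peaks among the 41217 peaks of both lists, with 42 from each list, and these lay in 41 of the 42 genes. The study mapped N6-methyladenosine (m6A), a methylated adenosine within messenger RNA, in seedlings aged 14 days. Poly(A) RNA was broken into fragments, those carrying m6A were captured with an antibody, and captured and input fragments were sequenced. The groups were wild type Columbia-0 and the mutant atalkbh10b-1, labelled atalkbh10b -/- in the Columbia-0 ecotype, with 2 pull-down and 2 input libraries each, 8 in all. No treatment is named for either group. The labels call the replicates biological, and nothing further says whether they were grown apart, so a test here measures the spread between these libraries.

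The 40S subunit binds the messenger RNA, scans to the start codon and holds the site where codons are read. In Arabidopsis each of its proteins is encoded by a small family of similar nuclear genes, whose transcripts are abundant in growing tissue. ALKBH10B, the gene mutated here, encodes an enzyme that removes m6A from messenger RNA. Its own transcript (AT4G02940) had peaks in both lists, which does not check its loss, since enrichment is taken here as relative to the input. The RefSeq table holds all 42 members as protein-coding genes and gives 14 of them a symbol. These include the 40S protein SA (P40 and RPSAb), S5 (RPS5A and RPS5B), S6 (RPS6 and EMB3010), S18 (PFL and RPS18C), S10, S13 and S15A, which goes with the label. The other members are given by locus only.

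Values below are the authors' log2 enrichment of a peak in 1 replicate, so that a value of 1 is a doubling, and a position is a distance in bases from the start of the gene model, in the authors' numbering. Whether introns count in these positions is not given in the sources used here. Enrichment is taken here to measure how far the pull-down exceeded the input at a peak, and not how much transcript was present. Its formula is not given in the sources used here. Depth is unknown from these values. Of the members, 10 overlap another annotated gene, among them P40, RPSAb, RPS13A, EMB1080 and RPS18C. Whether reads were counted by strand is not given, so their peaks could hold reads of the neighbour.

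Almost every member was listed in both genotypes, with a single peak. Of the 41 listed members, 39 had peaks in both lists (95.1%), where 77.4% of all 14304 listed genes did. A single peak was listed for 38 of 40 members in wild type and for 38 of 40 in the mutant (95% in each), against 60.2% and 57.5% of all listed genes. With 1 list per genotype a listing has no replicate check and was not tested. By position, 39 of the 42 wild-type peaks shared at least 1 base with a mutant peak (92.9%), against 69.4% of all wild-type peaks. In the mutant 39 of 42 peaks had a wild-type partner, against 69.3% of all mutant peaks.

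The genes outside this pattern were few. RPSAb (AT3G04770), the second gene for the 40S protein SA, was listed in wild type alone (bases 138 to 336), where replicates 1 and 2 had log2 enrichments of 0.06 and 3.95. AT5G39850 was listed in the mutant alone, at bases 572 to 770, with 8.64 and 0.18. Each of these listings thus came with 1 high value and 1 value near 0 in the replicates used. AT5G59240 had no peak in either list. A transcript that is scarce in seedlings can be missing from a list too, and transcript amounts were not examined, so none of these genes is shown to differ in methylation.

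Second peaks were present in 4 members, each in 1 genotype, and all were weak. P40 (AT1G72370), a 40S protein known to act in ribosome assembly, had a wild-type peak close to its start, at bases 44 to 170, where enrichment was 1.12 and 0.34. AT5G07090 had one at bases 671 to 810 in wild type, with 1.00 and 1.07. In the mutant AT2G41840 had one at bases 144 to 280, with 1.13 and 1.03, and AT4G34670 one at bases 484 to 655, with 1.39 and 1.09. In all 4 genes the peak shared by the genotypes lay nearer the end of the gene model than the second peak.

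**Figure D1:**
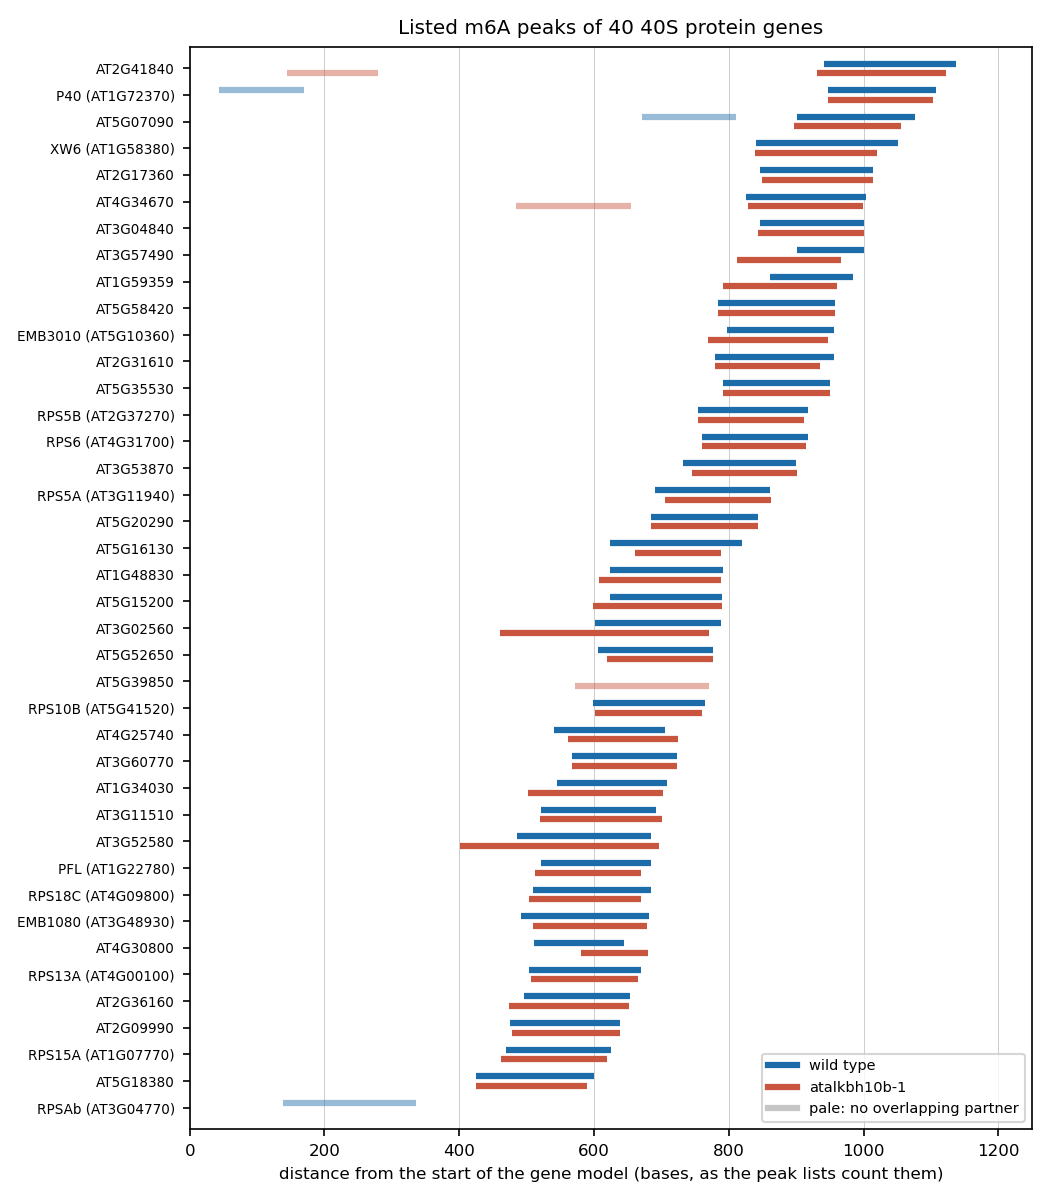
Listed peaks of 40 of the 41 listed members as bars along the distance from the start of the gene model (x axis, bases), with wild type in blue, the mutant in red and pale bars for peaks without a partner. Both genotypes have 1 main peak per gene at nearly the same place, and 3 pale bars in each genotype mark the exceptions.

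The shared peak of each gene stood at nearly the same bases in both lists. Its first base lay between 425 (AT5G18380) and 947 (P40) in wild type and between 401 (AT3G52580) and 947 in the mutant, so none of the 39 began before base 401. Starts within the first 200 bases were found for 4.76% of the members' wild-type peaks, against 13% of all wild-type peaks. For mutant peaks these shares were 2.38% and 12.7%. Yet the typical member peak began nearer the start of the gene model than the typical peak of all genes. In the wild-type list the median first base of members' peaks stood at 623.5, against 1166 over all peaks. The mutant list gave 605 against 1136. Gene lengths were not compared, and their part in these positions was not tested. The members' peaks had a median width of 166 bases in wild type and 161 in the mutant, where the median of all peaks was 157 in both lists. Between the lists the first base of a member's shared peak moved by a median of 7 bases and its last base by 5, against 25 and 20 over all pairs. The overlap covered a median of 90.8% of the joint span, against 73.1% over all pairs.

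Borders were identical in 3 genes, AT3G60770 (bases 567 to 723), AT5G20290 (bases 684 to 843) and AT5G35530 (bases 792 to 950). That is 7.69% of the members' pairs, against 1.49% of all pairs. The largest shift was in AT3G02560, whose peak began at base 602 in wild type and at base 461 in the mutant. Its mutant peak was the widest, at 311 bases. AT3G57490 and AT4G30800 overlapped least, by 34.9% and 38.2% of the joint span.

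Enrichment at the 39 shared peaks was moderate, though it differed from gene to gene. The mean of the 4 values ran from 0.98 (AT1G59359) to 4.09 (AT3G04840), with a median of 2.61 beside 2.72 over all 13875 pairs of overlapping peaks. The central range was narrower for the members, from 2.03 to 3.22 between the quartiles against 1.76 to 3.88. All 4 values were at least 1 in 35 of the 39 pairs (89.7%), against 57.8% of all pairs. The other 4 were AT1G59359, AT3G02560, AT4G25740 and AT4G30800. Of the 156 values, 1 was below 0 and 2 were above 5.

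Both proteins known for leaf shape had moderate values. PFL (AT1G22780), which encodes S18 and whose loss gives pointed first leaves, had log2 enrichments of 1.88 and 2.84 in wild type and 2.82 and 2.86 in the mutant. Replicate 1 of wild type was the low value, and the groups overlapped, with a mutant minus wild-type difference of 0.48 ± 0.94 (SE). Every SE given with a difference comes from limma's moderated fit, described below. That fit takes much of its spread from all pairs, so the SE is not the gene's own replicate spread. RPS18C (AT4G09800), the other named gene for S18, had 3.47 and 3.30 against 2.77 and 4.04, a difference of 0.02 ± 0.98. PFL lay below RPS18C in 3 of the 4 libraries.

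RPS13A (AT4G00100), also known as PFL2 from the same leaf form, encodes S13. It had log2 enrichments of 2.65 and 3.04 in wild type and 1.98 and 2.40 in the mutant. Both mutant values lay below both wild-type values, with a difference of -0.65 ± 0.90 (SE).

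Both genes for S6 had peaks in both lists, at different levels. S6 is phosphorylated by the S6 kinases that the TOR kinase activates when conditions favour growth. RPS6 (AT4G31700) had log2 enrichments of 1.91 and 1.58 in wild type and 1.23 and 1.90 in the mutant, among the lowest of the members. EMB3010 (AT5G10360), whose loss arrests the embryo, had 3.49 and 2.85 in wild type and 1.84 and 3.22 in the mutant. RPS6 was the lower of the pair in 4 of the 4 libraries, and the RPS6 minus EMB3010 difference of means was -1.42 for wild type and -0.96 for the mutant. Within each gene the genotypes overlapped, with mutant minus wild-type differences of -0.19 ± 0.92 (SE) for RPS6 and -0.64 ± 1.02 for EMB3010.

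The genes for S5, a protein of the head of the subunit, had similar means. RPS5A (AT3G11940), required for embryo growth and cell division, had log2 enrichments of 3.26 and 3.56 in wild type and 3.88 and 2.43 in the mutant. RPS5B (AT2G37270), its close relative, had 2.85 and 4.71 in wild type and 3.25 and 2.49 in the mutant. Replicate 2 of wild type gave the high value of RPS5B, and the genotypes overlapped at both genes. The differences were -0.26 ± 1.02 (SE) for RPS5A and -0.91 ± 1.12 for RPS5B. RPS5A was above RPS5B in 2 of the 4 libraries and below it in 2.

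The main peak of P40 spanned bases 947 to 1108 in the wild-type list and ended 5 bases earlier in the mutant list. It had 3.26 and 4.05 in wild type and 2.90 and 4.27 in the mutant, a difference of -0.07 ± 1.03 (SE). With AT3G04840 and AT3G57490 it had the highest means of the members. RPS10B (AT5G41520), for S10, had 3.91 and 2.06 in wild type and 2.55 and 2.69 in the mutant. RPS15A (AT1G07770), for S15A, had 2.97 and 3.74 against 2.50 and 3.43. EMB1080 (AT3G48930), an embryo-defective gene of the same subunit, had 1.48 and 3.06 against 2.08 and 2.47, so the mutant values lay between those of wild type. The genotypes overlapped at each of these 4 genes.

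**Figure D2:**
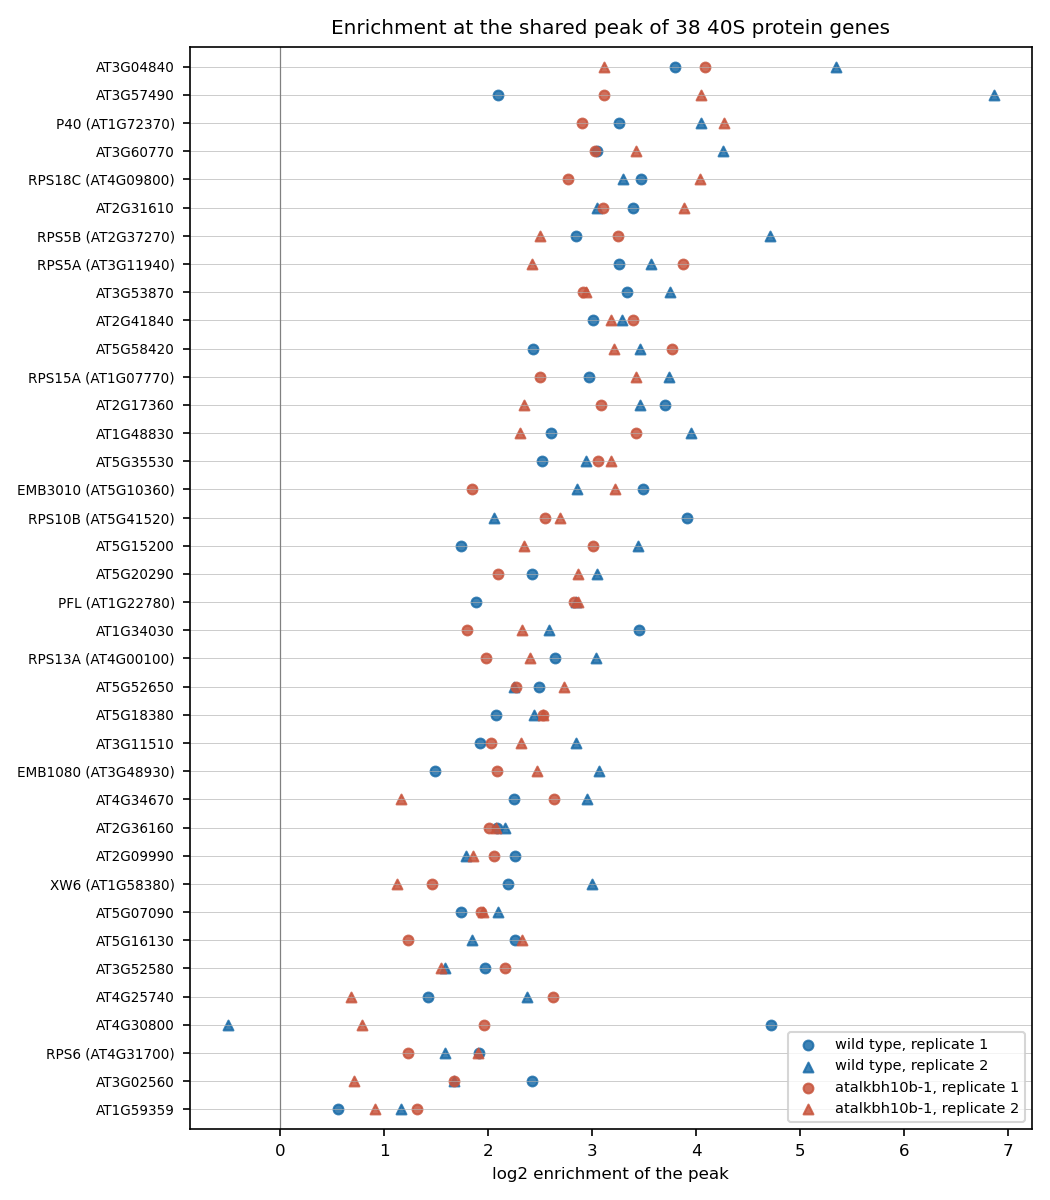
Log2 enrichment (x axis) of the shared peak of 38 of the 39 members (y axis, ordered by the mean of the 4 values), with wild type in blue and atalkbh10b-1 in red, circles for replicate 1 and triangles for replicate 2. The 4 points of a gene span from 0.15 in AT2G36160 to 5.22 in AT4G30800, and the median over the 39 members is 1.25.

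The comparison of genotypes asked whether enrichment at these peaks differed where the demethylase is mutated. No member passed limma's moderated test, fitted across all 13875 pairs with Benjamini-Hochberg adjustment at a threshold of 0.05. Over all pairs 0 passed (0%), the smallest adjusted p being 0.9996 for members and for all pairs alike. At an unadjusted limma p under 0.05 stood 0 members and 491 pairs in all (3.54%), and the smallest unadjusted limma p of a member was 0.23, for XW6. An exact permutation test of 2 values against 2 cannot go below 0.333. The fit takes much of its spread from all pairs, whose replicates lay farther apart than those of the members.

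By size alone, 27 of the 39 members (69.2%) lay within 1.5-fold between genotype means, where 35.5% of all pairs did. Of the other 12, the mutant mean was at least 1.5-fold lower in all 12 (30.8%, against 32.1% of all pairs) and at least 1.5-fold higher in 0 (against 32.4%). With each library centred on its median over all pairs, the counts became 9 lower and 1 higher, against 4188 and 4779 of all 13875 pairs. Without wild-type replicate 2 they became 7 lower and 6 higher, against 32.6% and 36% of all pairs. Without wild-type replicate 1 they became 15 and 1, against 35.1% and 35.1%. Without mutant replicate 1 they were 12 and 3, against 38.8% and 33.7%. Without mutant replicate 2 they were 12 and 2, against 34.1% and 34.8%. Each count with a replicate left out sets a single library against the mean of the other genotype. The median difference of the members was -0.25 on the log2 scale, against -0.02 over all pairs. It became 0.01 without wild-type replicate 2 (0.06 over all pairs) and -0.41 without wild-type replicate 1 (-0.04 over all pairs). Without mutant replicate 1 it was -0.07, nearer 0 than the -0.13 over all pairs, and without mutant replicate 2 it was -0.19, against 0.02. The median size of a difference, whatever its sign, was 0.27 for the members and 0.92 for all pairs.

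**Figure D3:**
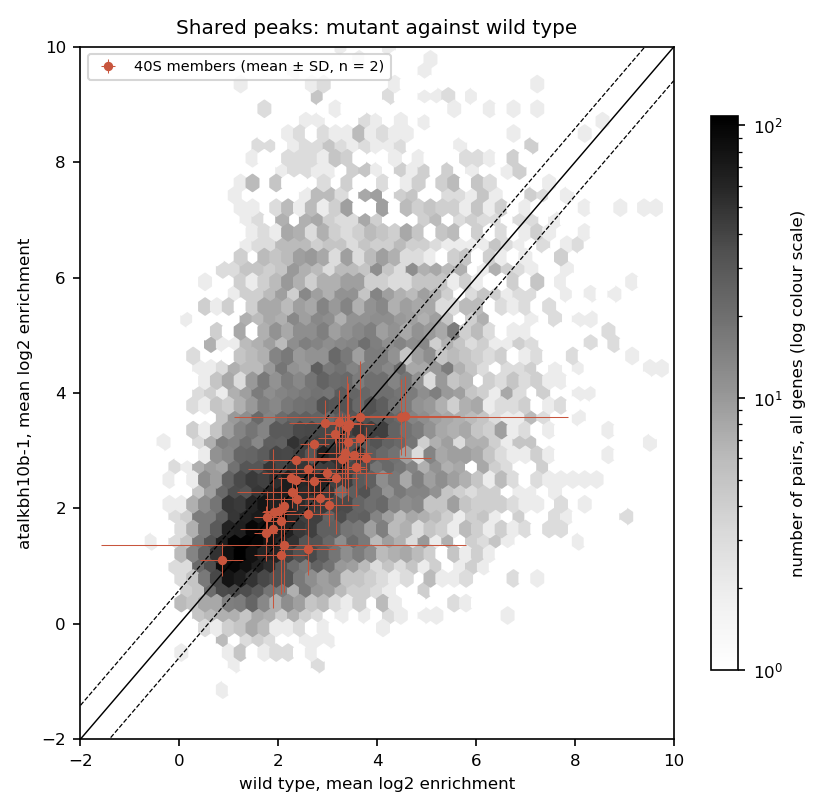
Mean log2 enrichment of shared peaks in the mutant (y axis) against wild type (x axis), with all pairs as grey hexagons and members in red as mean ± SD (n = 2), a solid line of equality and dashed lines at 1.5-fold. Members lie along the line within the dense part of the cloud, and 12 lie below the lower dashed line; 66 pairs of other genes fall outside the axes.

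In 6 of the 39 members (15.4%) the mutant was at least 1.5-fold lower with both its values below both wild-type values, a share near the 13.6% of all pairs. These 6 were 50% of the 12 lower members, where 42.4% of all lower pairs had this order. In 0 members did both mutant values lie above at this size, against 12.6% of all pairs. XW6 (AT1G58380) had the largest difference, with log2 enrichments of 2.19 and 3.0 in wild type and 1.46 and 1.12 in the mutant, a difference of -1.31 ± 0.93 (SE, 2.47-fold). It was the only 1 of the 39 past 2-fold. Among the 6 without overlap AT1G34030 came next, with 3.45 and 2.59 against 1.80 and 2.32. AT2G17360 had 3.70 and 3.46 against 3.08 and 2.35, and AT3G02560 had 2.42 and 1.67 against 1.67 and 0.71. AT3G53870, with 3.33 and 3.75 against 2.91 and 2.94, stood closest to the 1.5-fold limit, and RPS13A was the remaining gene. The gap between genotypes at AT3G02560 was narrow, since the higher mutant value and the lower wild-type value were both 1.67.

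The other 6 lower members had overlapping values. AT3G04840 had 3.79 and 5.35 in wild type and 4.09 and 3.11 in the mutant. AT3G57490 had 2.09 and 6.87 against 3.11 and 4.05, and without wild-type replicate 2 its difference turned from -0.90 to 1.49. AT4G30800 had 4.72 and -0.50 against 1.96 and 0.78, the widest spread of the members, and without wild-type replicate 1 its difference turned from -0.74 to 1.88. RPS5B, EMB3010 and AT4G34670 completed the group, the last with 2.24 and 2.95 against 2.64 and 1.16.

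On the other side, mutant means were higher in 14 members, none by 1.5-fold. AT5G58420 had the largest such difference, 0.54 ± 0.97 (SE), from 2.43 and 3.46 in wild type and 3.77 and 3.21 in the mutant. Without regard to size, both mutant values were the higher ones in 2 members, against 13.7% of all pairs, and the lower ones in 7, against 15%. The 2 were AT5G35530 (3.05 and 3.18 against 2.52 and 2.94) and AT5G18380 (2.53 and 2.53 against 2.08 and 2.44). AT5G35530 was also one of the genes with identical borders in both lists. The closest values were those of AT2G36160, at 2.08 and 2.16 in wild type and 2.01 and 2.07 in the mutant. In 12 members the difference was at most 0.2 on the log2 scale. For this count and for the 14 higher means, the shares over all pairs are not given here. The lower quartile of the size of a difference was 0.13 for the members and 0.39 over all pairs.

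XW6 and AT1G59359 are known to have near-identical copies, and reads may be divided between them. AT1G59359 had the lowest mean of the members, with log2 enrichments of 0.55 and 1.16 in wild type and 1.31 and 0.91 in the mutant. The copies AT1G58684 (1.07 and 1.25 against 1.20 and 0.65) and AT1G58983 (1.09 and 1.51 against 1.22 and 0.55), which are not members, had values much like it. Their mutant peaks began at bases 791 and 781, and that of AT1G59359 at base 791. In wild type the peaks of both copies began at base 901, and that of AT1G59359 at base 861. Mutant means were below wild-type means at both copies and above at AT1G59359. Since reads may be divided between copies, the values of XW6 and AT1G59359 are uncertain.

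The order of the members by enrichment was much the same in both genotypes. Spearman's rho between the wild-type and mutant means was 0.84 across the 39 genes, beside 0.50 across all pairs. Between the replicates of 1 genotype it was 0.36 for wild type and 0.56 for the mutant, beside 0.32 and 0.19 across all pairs. In wild type the members' value was thus near that of all pairs. Genes are not independent replicates, and these values share the borders and libraries of the same lists.

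Replicates lay closer together at these peaks than over all pairs, as they did at the other ribosomal genes described below. On the log2 scale the replicates of a member lay a median of 0.71 apart in wild type and 0.62 in the mutant, against 1.26 and 1.60 over all pairs. Both of the members' medians exceeded 0.585, which is 1.5-fold on this scale. The gap was under 1 in 29 of the 39 members in wild type and in 30 in the mutant, against 42% and 35% of all pairs. All 4 values fell within a range of 1 in 16 members (41%), against 10.5% of all pairs. Among the 10147 pairs whose mean lay between the lowest and the highest member, chosen after the data were seen, 39.3% lay within 1.5-fold and the median gaps were 1.07 and 1.33. Input reads and transcript abundance were not examined, and their part in the close values was not tested.

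Wild-type replicate 2 stood above the other libraries at these genes. The median of the 39 members was 3.0 there, against 2.49 in wild-type replicate 1 and 2.55 and 2.47 in mutant replicates 1 and 2. Over all pairs the 4 medians were 2.50 and 2.62 in wild type and 2.52 and 2.44 in the mutant. Replicate 2 was above replicate 1 in 26 of the 39 members in wild type, against 52.1% of all pairs. In the mutant it was above in 22 of the 39, against 47.2% of all pairs. In 17 members the highest of the 4 values was that of wild-type replicate 2, and in 8, 7 and 7 it was that of wild-type replicate 1 and mutant replicates 1 and 2. The matching counts of highest values over all pairs are not given here. The part of the level of wild-type replicate 2 in the lower mutant means was not tested.

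**Figure D4:**
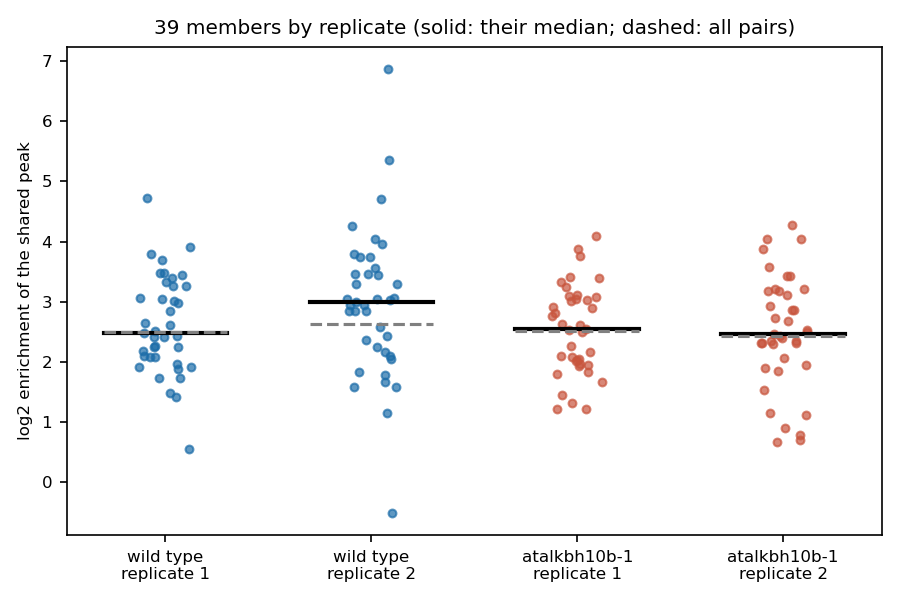
Log2 enrichment of the shared peak (y axis) of the 39 members in each replicate (x axis), 1 point per gene, with the members' median as a solid line and the median of all pairs as a dashed line. The solid and dashed lines nearly coincide in 3 libraries, and the members' median of 3.0 stands above the dashed line in wild-type replicate 2.

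Other genes of the ribosome had peaks of the same kind. Of 52 further 40S genes, from RPS12 to RPS30 with missing copies of earlier families, 44 were listed, 42 of them in both genotypes (95.5%). Of 41 shared pairs, 28 (68.3%) lay within 1.5-fold, 3 were higher and 10 lower in the mutant, and the median gaps between replicates were 0.52 and 0.78. Their enrichment was lower than that of the members, with a median of 1.86 over the 4 values against 2.61. Among them AT4G39200 had 2.53 and 3.01 in wild type and 1.86 and 1.62 in the mutant, without overlap. AT2G19750 and AT2G40510 were lower in the mutant by a similar size (-1.23 and -1.04) and AT2G45710 was higher (0.98), all with overlapping values.

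Genes of the large subunit (60S) were listed in both genotypes in 107 of 112 cases (95.5%). Of their 114 shared pairs, 65 (57%) lay within 1.5-fold, 20 were higher and 29 lower, and the median over the 4 values was 1.93. The median gaps between replicates of these pairs were 0.51 in wild type and 0.62 in the mutant. Larger differences than at any member were found there, as at RPL16A (AT2G42740), with 2.63 and 6.21 in wild type and 2.25 and 0.17 in the mutant, and at AT4G36130, with 3.43 and 2.45 against 5.43 and 4.56. RPL10B, lower in the mutant (-2.33), and AT3G58700, higher in the mutant (2.27), were the others of the 4 largest, with overlapping values.

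Factors that bind the 40S subunit (RACK1 and subunits of eIF3) and the TOR and S6 kinase genes had more peaks per gene. All 20 listed genes of this group were listed in both genotypes, and 40% of them had a single peak in wild type. Of 32 shared pairs, 15 (46.9%) lay within 1.5-fold, 8 were higher and 9 lower, with median replicate gaps of 0.83 and 1.26. S6K2 (AT3G08720), a kinase of S6, had 3.16 and 10.30 in wild type and 7.90 and 0.25 in the mutant, and TIF3B1 (AT5G27640), an eIF3 subunit, had 7.34 and 6.51 against 3.44 and 5.32. RAPTOR1, a partner of TOR, and AT4G20980 had the other large differences, with overlapping values. The first was lower in the mutant (-2.73) and the second higher (2.36). No pair of these 3 groups passed limma's test, and at an unadjusted p under 0.05 stood 0 of them. Differences between the groups of genes were not tested.

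**Figure D5:**
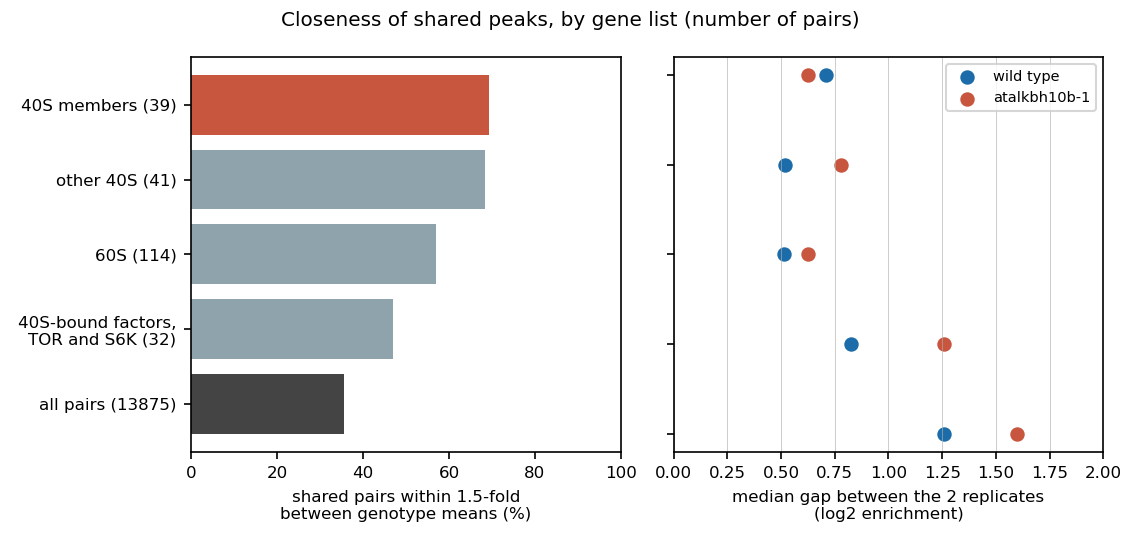
Left, share of shared pairs within 1.5-fold between genotype means (x axis, percent) for each gene list, with the number of pairs in brackets. Right, median gap between the 2 replicates (x axis, log2 enrichment) in wild type (blue) and the mutant (red) for the same lists. The 40S members and the other 40S genes have the highest shares, 69.2% and 68.3%, and all pairs the lowest, 35.5%.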

How the data were processed

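The authors deposited 1 peak list per genotype, with a gene, a start and an end per peak and, as log2 values per the file headers, its enrichment in each replicate. TopHat2 2.0.14, edgeR and the build TAIR10 are named in the submitters' processing notes, with no role. For the peak caller, thresholds, formula and scaling the sources used here give nothing. Of the value columns, 2 (replicate 3) match no sample and were not used. The members and gene lists were chosen with earlier results of these data known, and the lists come from general knowledge. Symbols come from a RefSeq table of the TAIR10.1 assembly.

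Peaks of a gene that overlapped by at least 1 base were shared, and pairs in which each was the other's largest overlap were compared. Log2 values were used as deposited, with no pseudocount. Differences were tested with limma 3.58.1 in R 4.3.3 (no replicate block). Members named with values were those listed in 1 genotype or neither, up to 8 per direction by size without overlap and past 1.5-fold, the 4 highest and 4 lowest, those with most peaks, some listed by name, and others chosen after their values were seen. The other lists had up to 4 genes named by size. The values of 1 member are not reported here.

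On simulated pairs with their own spread the fit called 0 of 50 at each log2 shift of 1, 2, 4 and 8, and with a spread 10 times smaller 22, 37, 49 and 50 of 50, with 5 false calls of 13675. So 0 calls here say little about the size of real differences. Python 3.11.15, numpy 2.4.6, pandas 2.3.3, scipy 1.17.1 and matplotlib 3.10.9 were used.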

Additional observations from a re-analysis of the deposited data

How the results depend on the processing

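The count of limma calls stayed at 0 for members and for all pairs under centring, a mean of at least 1, both stricter overlaps and a replicate block, and with a replicate left out. With equal numbers of libraries the replicate block cannot alter a difference, so it bears on p-values alone. The correlation of replicate deviations was 0.0068 over 13875 pairs. It does not tell whether libraries of the same replicate number were grown or handled together. The block called 0 pairs, with 567 at an unadjusted limma p under 0.05, against 491 without the block. Members listed in both genotypes were 35 where both replicates had to reach a log2 enrichment of 1, and 31 without members that overlap another gene. Under the first of these, 2 members were listed in wild type alone, 0 in the mutant alone and 5 in neither list; under the second these were 0, 1 and 0. The count of members at least 1.5-fold lower was 1 at a ratio of 2. It ran from 7 to 15 with 1 replicate left out, where 32.6% to 38.8% of all pairs were lower. Those higher numbered 1 after centring and 1 to 6 with 1 replicate left out, where 33.7% to 36% of all pairs were higher. The counts of members listed in both, with a partner or within 1.5-fold stayed within 1.5 times of their values. The members' median difference ran from -0.41 to 0.01 with 1 replicate left out. Where 1 replicate was left out, the lone sample is assumed to vary like the other group.

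Centring turned the differences at P40 (AT1G72370) to 0.015 and at AT2G36160 to 0.0024. Single differences with 1 replicate left out were taken at 25 of the members named above. RPS10B, RPS15A and EMB1080, given with values above, were not among them. By those values the sign at each also depends on the replicate left out. Among the 25, differences took both signs at 14 pairs. They ran from -3.28 to 1.49 at AT3G57490, -3.35 to 1.88 at AT4G30800, -1.84 to 0.025 at RPS5B, -1.44 to 0.039 at AT4G34670, -1.33 to 0.046 at EMB3010, -1.22 to 0.72 at AT4G25740, -0.99 to 0.47 at RPS5A, -0.75 to 0.62 at P40, -0.62 to 0.65 at RPS18C, -0.52 to 0.15 at RPS6, -0.15 to 0.21 at AT5G07090, -0.046 to 0.56 at AT1G59359, -0.0033 to 0.28 at AT2G41840, and -0.00049 to 0.96 at PFL. The cause was not tested. An alternative without members whose protein is identical to another was not run, since no protein sequences were used here. The sets without overlapping genes, without XW6 and AT1G59359, and at the members' level of enrichment were chosen after seeing the data. Depth is unknown, so what it limits cannot be given.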
